A study of Homo sapiens with 4 samples.

Results

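Fatty acid breakdown was examined as a set of 43 listed genes: 18 mitochondrial genes of beta-oxidation and ketone body metabolism, 12 peroxisomal enzymes, 10 peroxins (PEX genes, which build the peroxisome) and 3 other genes of lipid handling. A gene was measured where a probe set of the array named it and no other gene, and its brightest probe set over all arrays stood for it. That gave 40 of the 43 genes among 12165 genes in all: 17 mitochondrial, 11 peroxisomal, 9 PEX and 3 other. SCP2 and PEX13 had 0 probe sets used here, and ACOT2 shared its only probe set with ACOT1, so these 3 were not analysed here. The RNA came from Huh-7 cells, a line of human hepatocellular carcinoma. There were 2 arrays of cells harvested 48 h after transforming growth factor beta (TGF-beta) was added and 2 arrays of untreated cells. All cells were kept in Dulbecco's modified Eagle medium and 10% fetal bovine serum, inactivated by heat. The sources used here give no dose of TGF-beta. Nothing says that array 1 and array 2 of a group stand for separate cultures, and the p-values therefore measure the spread of these arrays alone, which may be technical.

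Mitochondrial beta-oxidation shortens fatty acids after the carnitine shuttle has carried them into the matrix: an acyl-CoA dehydrogenase, a hydratase, a second dehydrogenase and a thiolase act in turn, and electrons pass through the electron transfer flavoprotein to the respiratory chain. Peroxisomes shorten very long and branched chains with oxidases that make hydrogen peroxide, and start ether lipid synthesis. Hepatocytes are rich in both organelles, and the nuclear receptor PPARA drives many of these genes there.

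The deposited intensities are linear, 1 per probe set and array, and all differences are log2 of TGF-beta over untreated. The median intensity of all probe sets was 51.0 and 50.7 on the TGF-beta arrays and 50.3 and 50.1 on the untreated arrays. Hepatocyte markers were bright, with 16 of 17 brighter than the median gene and summed intensities of 146151 and 143817 after TGF-beta against 135644 and 138723 in untreated cells. The 2 called hepatocyte markers moved in opposite directions: APOA1 rose (called, 0.74, adjusted p = 0.0378 in limma), TTR fell (called, -0.63, adjusted p = 0.0470 in limma), while VTN was at 1.12 (not called, adjusted p = 0.0521 in limma). Markers of other cell types were mostly dim: 2 of 13 fibroblast, 3 of 10 leukocyte and 1 of 8 endothelial markers were brighter than the median gene, 4, 6 and 4 lay under the lower quartile of all genes, and no intensity in the deposited values is 0. Their summed intensities were 7727 and 8158 after TGF-beta against 7950 and 7421 in untreated cells for fibroblast markers, most of it LUM (lumican), with 6777 and 7292 after TGF-beta against 7184 and 6692 in untreated cells. For leukocyte markers they were 798 and 890 after TGF-beta against 1141 and 1034 in untreated cells, and for endothelial markers 297 and 289 after TGF-beta against 317 and 309 in untreated cells. The leukocyte markers CD14 (called, log2 difference 1.004) and LCP1 (called, -0.78) moved in opposite directions, and the fibroblast marker PDGFRA rose (called, 0.76). The part of all these markers in the results was not tested.

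Only 1 of the 40 genes, ACSM3, passed the test after TGF-beta, and it fell. The call rule, an adjusted p under 0.05 in limma's fit over all genes, was met by 1.22% of all genes (0.658% higher and 0.567% lower), so 1 call in 40 is near the background. Of the genes brighter than the median gene 2.1% met it. In the set 35 of the 40 were that bright and 0 of them were called, since ACSM3 lay at percentile 47.9 of intensity. With no threshold, 26 of 40 differences were negative, against 6258 of 12165 over all genes. Among genes brighter than the median gene, 21 of 35 in the set were negative, against 3063 of 6083. The median of the 40 was -0.07, against -0.01 over all genes. The mitochondrial median was -0.09, the peroxisomal median -0.17, the PEX median -0.04 and that of the other 3 genes -0.07. At an unadjusted p under 0.05, which 18% of all genes reached, 10 genes were lower (25% of the 40, against 8.6% of all genes) and 6 were higher (15%, against 9.35%). Among the 35 brighter genes of the set, 8 were lower (22.9%, against 13.5% of all brighter genes) and 6 higher (17.1%, against 14.7%). The counts of 10 lower and 6 higher in the 40 moved with the scaling. They were 11 and 6 under quantile normalization and 12 and 7 with an offset of 32 before log2. When each array was centred on its median they were 13 and 1. That median was taken over the brightest probe set of each gene, not over all probe sets. Over all genes, 2135, 2347 and 2455 reached an unadjusted p under 0.05 in limma in these settings, against 2184 in the main fit. Median centring also moved the median of all genes to -0.083. The counts may also rest on single arrays, but a fit without 1 array leaves a single array in its group and cannot decide this. Both TGF-beta arrays lay below both untreated arrays in 19 of the 40 genes (47.5%, against 25.9% of all genes) and above them in 9 (22.5%, against 23.3%), while in 12 the groups overlapped. Among the 35 brighter genes of the set, they lay below in 17 (48.6%, against 31.1% of all brighter genes) and above in 9 (25.7%, against 29.2%). Over all genes the groups stood apart in 49.1%. No test was made of these shares, since the genes are not replicates of the treatment.

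**Figure D1:**
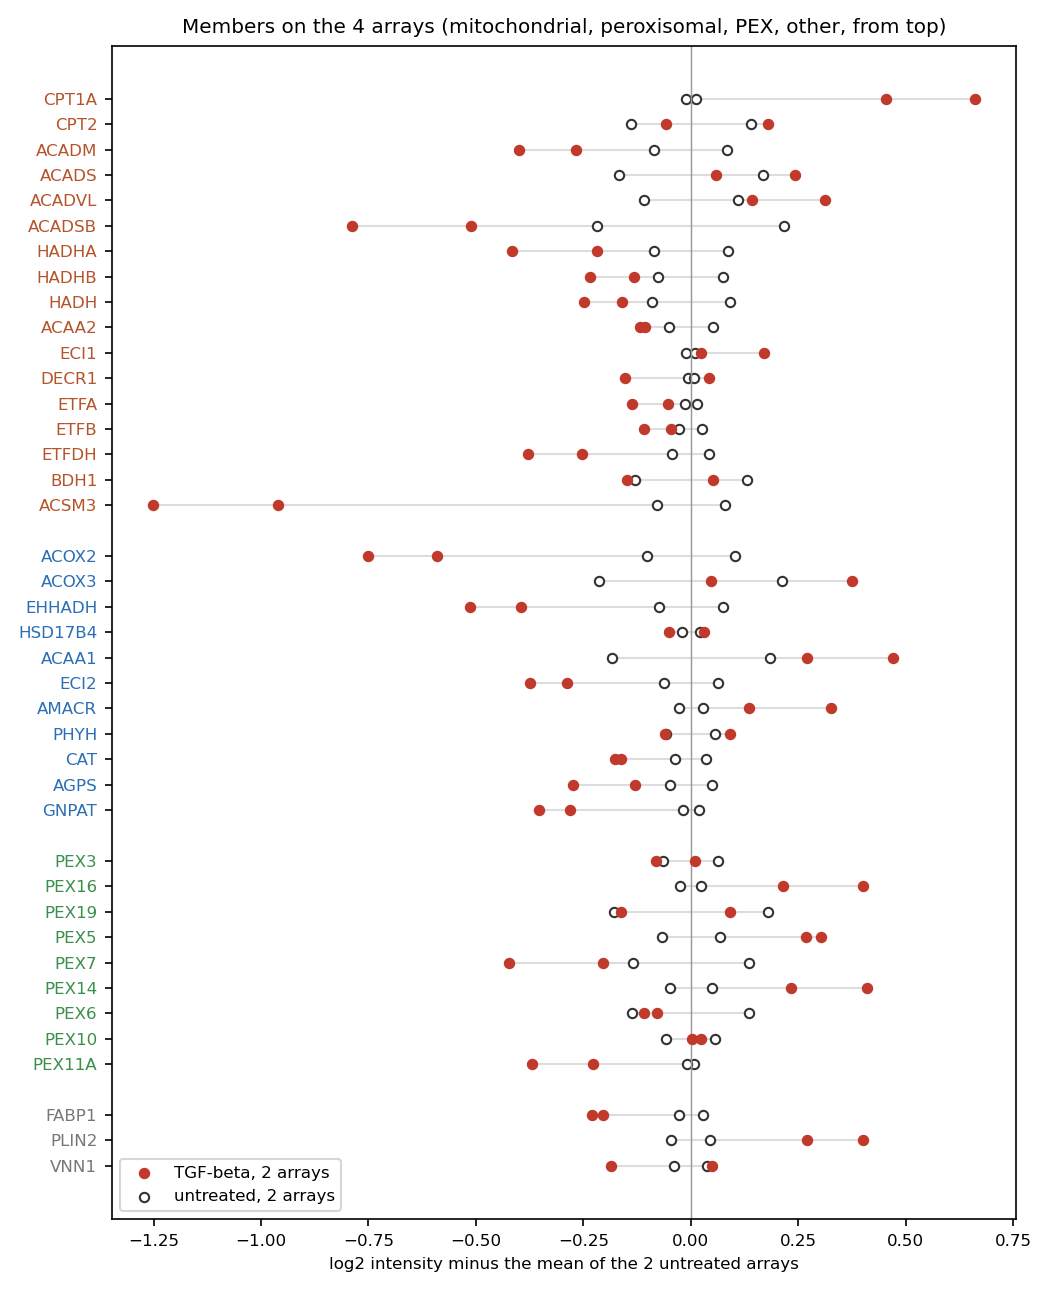
Intensity of each of the 40 measured genes on each array, as log2 minus the mean of the 2 untreated arrays (x axis), with filled points for the 2 TGF-beta arrays and open points for the 2 untreated arrays, and genes listed by class from mitochondrial at the top through peroxisomal and PEX to other. The TGF-beta points of ACSM3 lie farthest to the left, a TGF-beta point of CPT1A lies farthest to the right, and the groups overlap in 12 genes.

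The start sites of 35 of the 43 listed genes are in RefSeq's promoter table (GRCh38.p14), and ACSM3, the called gene, is not among them. As examples 3 stretches of uncalled genes are shown. They are the stretch between HADHA and HADHB, whose products form 1 enzyme, and the windows of CPT1A and FABP1. CPT1A and FABP1 are textbook PPARA targets that lay on opposite sides of untreated cells. Each stretch is the 250 bases before the start, 5′ to 3′ on the gene's strand. In the HADHB line the capitals mark the 194 bases that also lie in the 250 bases before HADHA, which is read from the opposite strand, and 306 bases lie between the first bases of the 2 genes. In the CPT1A line they mark CAGAC, the SMAD box. In the FABP1 line they mark a match to GGNCANAGGNCA on the opposite strand, a loose form of the PPAR response element. The FABP1 line also holds CAGAC on the opposite strand (gtctg, near its end), left unmarked, so the SMAD box does not set these 2 genes apart.
HADHB, chr2:26244689-26244938, plus strand: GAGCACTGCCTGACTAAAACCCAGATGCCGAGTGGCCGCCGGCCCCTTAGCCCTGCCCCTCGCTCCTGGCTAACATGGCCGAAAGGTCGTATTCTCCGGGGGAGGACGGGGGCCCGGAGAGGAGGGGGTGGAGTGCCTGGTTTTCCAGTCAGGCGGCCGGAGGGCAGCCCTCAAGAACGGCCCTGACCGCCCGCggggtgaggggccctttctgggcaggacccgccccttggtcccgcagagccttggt
CPT1A, chr11:68844278-68844527, minus strand: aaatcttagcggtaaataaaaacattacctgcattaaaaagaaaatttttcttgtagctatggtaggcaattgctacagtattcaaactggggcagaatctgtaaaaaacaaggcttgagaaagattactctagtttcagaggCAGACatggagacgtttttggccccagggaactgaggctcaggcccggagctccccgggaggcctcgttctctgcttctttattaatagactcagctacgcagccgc
FABP1, chr2:88128063-88128312, minus strand: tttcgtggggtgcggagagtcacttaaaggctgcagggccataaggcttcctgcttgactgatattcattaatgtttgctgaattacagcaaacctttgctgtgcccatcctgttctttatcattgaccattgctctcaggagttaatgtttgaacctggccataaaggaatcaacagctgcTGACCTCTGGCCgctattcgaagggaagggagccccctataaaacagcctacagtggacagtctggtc

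Motifs were searched on both strands in windows of 300 bases, 250 before and 50 after the start, and were chosen with these results known. CAGAC was in 22 of 48 windows of listed genes (45.8%, some genes having several starts) and in 45.3% of all 35116 windows. AGGTCANAGGTCA, the full PPAR response element, was in 0 of the 48 and in 0.0228% of all windows. The loose form GGNCANAGGNCA was in the windows of FABP1 and ACADS, 4.17% of the 48 against 0.917% of all. AGGTCA, a single copy of the repeated unit, was in 2 of the 48, those of AGPS and FABP1 (4.17%, against 13.8% of all), and CACGTG, an E-box, in 3 (6.25%, against 7.26%). GGGCGG, the GC box, was in 68.8% of the 48 and 45.0% of all windows, whose median GC content was 65.3% and 58.7%. A match in these letters is a description and not a binding site.

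The carnitine shuttle held the highest value of the set. CPT1A, carnitine palmitoyltransferase 1A, which sits on the outer mitochondrial membrane and controls the entry of long chains, had intensities of 453 and 393 after TGF-beta against 284 and 289 in untreated cells. The groups did not overlap, and the untreated arrays lay much closer together than the treated ones. Its log2 difference was 0.56 ± 0.12 (SE, n = 2 per group; 1.47-fold) with an adjusted p of 0.0623 in limma, so it was not called. Its other 3 probe sets, all dimmer, gave 0.04 to 0.30. CPT2, which reforms acyl-CoA inside, had 211 and 179 after TGF-beta against 169 and 205 in untreated cells, overlapping values with a difference of 0.06 ± 0.14 (SE). SLC25A20, the carrier between the pair and no member of the set, had 304 and 308 after TGF-beta against 430 and 408 in untreated cells, a difference of -0.45 ± 0.10 (SE) with an adjusted p of 0.0792 in limma.

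Of the 4 acyl-CoA dehydrogenases, which take the first step at different chain lengths, 0 were called. ACADSB, which handles short branched chains from isoleucine, had 111 and 91.3 after TGF-beta against 183 and 136 in untreated cells. Both treated values lay below both untreated ones, though the untreated arrays differed widely between themselves. The difference was -0.65 ± 0.17 (SE), with an adjusted p of 0.104 in limma. ACADM, the medium-chain enzyme, had 878 and 963 after TGF-beta against 1229 and 1093 in untreated cells, a difference of -0.33 ± 0.12 (SE, adjusted p = 0.201 in limma), again without overlap. ACADVL, the very long-chain enzyme on the inner membrane, lay on the other side, with 768 and 683 after TGF-beta against 574 and 667 in untreated cells and a difference of 0.23 ± 0.13 (SE). ACADS, the short-chain enzyme, had 89.0 and 78.3 after TGF-beta against 84.4 and 66.9 in untreated cells, which overlap.

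The 4 members of the later steps had negative differences after TGF-beta, with 0 calls. ECHS1, the matrix hydratase and no member of the set, lay on the other side, with 3912 and 3670 after TGF-beta against 3455 and 3399 in untreated cells and a difference of 0.15 ± 0.11 (SE, adjusted p = 0.533 in limma). ECHS1 was chosen after its values were seen. HADHA and HADHB are the 2 subunits of the mitochondrial trifunctional protein, and their genes lie head to head on chromosome 2 as shown above. HADHA had 1099 and 1261 after TGF-beta against 1557 and 1382 in untreated cells, a difference of -0.32 ± 0.12 (SE, adjusted p = 0.239 in limma). Its other 2 probe sets gave -0.23 each. HADHB had 1713 and 1597 after TGF-beta against 1783 and 1979 in untreated cells, a difference of -0.18 ± 0.11 (SE), and for both subunits the groups did not overlap, with neither called. HADH, the dehydrogenase for medium and short chains, had 993 and 935 after TGF-beta against 1182 and 1042 in untreated cells, and its 3 probe sets gave -0.26 to -0.19. ACAA2, the matrix thiolase, had the smallest difference of the 4, with 1949 and 1933 after TGF-beta against 2176 and 2025 in untreated cells and a value of -0.11 ± 0.11 (SE).

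Electron transfer from these dehydrogenases showed the same side in its 3 genes, with 0 calls. ETFDH, the oxidoreductase that hands the electrons to ubiquinone, had 73.4 and 67.3 after TGF-beta against 90.1 and 84.8 in untreated cells, a difference of -0.32 ± 0.11 (SE, adjusted p = 0.198 in limma). Its other probe set gave -0.17. ETFA and ETFB, the subunits of the flavoprotein itself, were bright and close between groups: ETFA had 5725 and 5401 after TGF-beta against 5992 and 5882 in untreated cells, and ETFB 2619 and 2506 after TGF-beta against 2653 and 2754 in untreated cells. Their differences were -0.09 and -0.08, with unadjusted 95% intervals of -0.34 to 0.15 and -0.32 to 0.17.

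The auxiliary enzymes of unsaturated chains and the ketone body enzyme had differences near 0. ECI1, the mitochondrial enoyl-CoA isomerase, had 826 and 746 after TGF-beta against 728 and 739 in untreated cells. DECR1, the dienoyl-CoA reductase, had 3399 and 3889 after TGF-beta against 3758 and 3797 in untreated cells, and its treated values enclosed the untreated ones. BDH1, which interconverts the 2 main ketone bodies acetoacetate and beta-hydroxybutyrate, was dim, with 45.8 and 39.96 after TGF-beta against 40.4 and 48.4 in untreated cells. Their log2 differences were 0.10, -0.06 and -0.05.

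ACSM3, a mitochondrial medium-chain acyl-CoA synthetase, was the called gene. It had 49.0 and 40.04 after TGF-beta against 90.2 and 101 in untreated cells. The lower untreated array stood well above the higher treated one. In log2 it averaged 5.47 ± 0.21 after TGF-beta and 6.58 ± 0.11 in untreated cells (SD, n = 2 each), and it fell by 1.11 ± 0.13 (SE), with an adjusted p of 0.0235 in limma. A second probe set of ACSM3 had 32.6 and 44.0 after TGF-beta against 112 and 87.8 in untreated cells, a difference of -1.39. The treated values lay below the median intensity of all probe sets, where the range left for a fall is short, so the fold may be understated. The call was lost without either TGF-beta array (adjusted p = 0.170 and 0.197 in limma, with log2 differences of -1.25 and -0.96) and with an offset of 32 before log2.

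**Figure D2:**
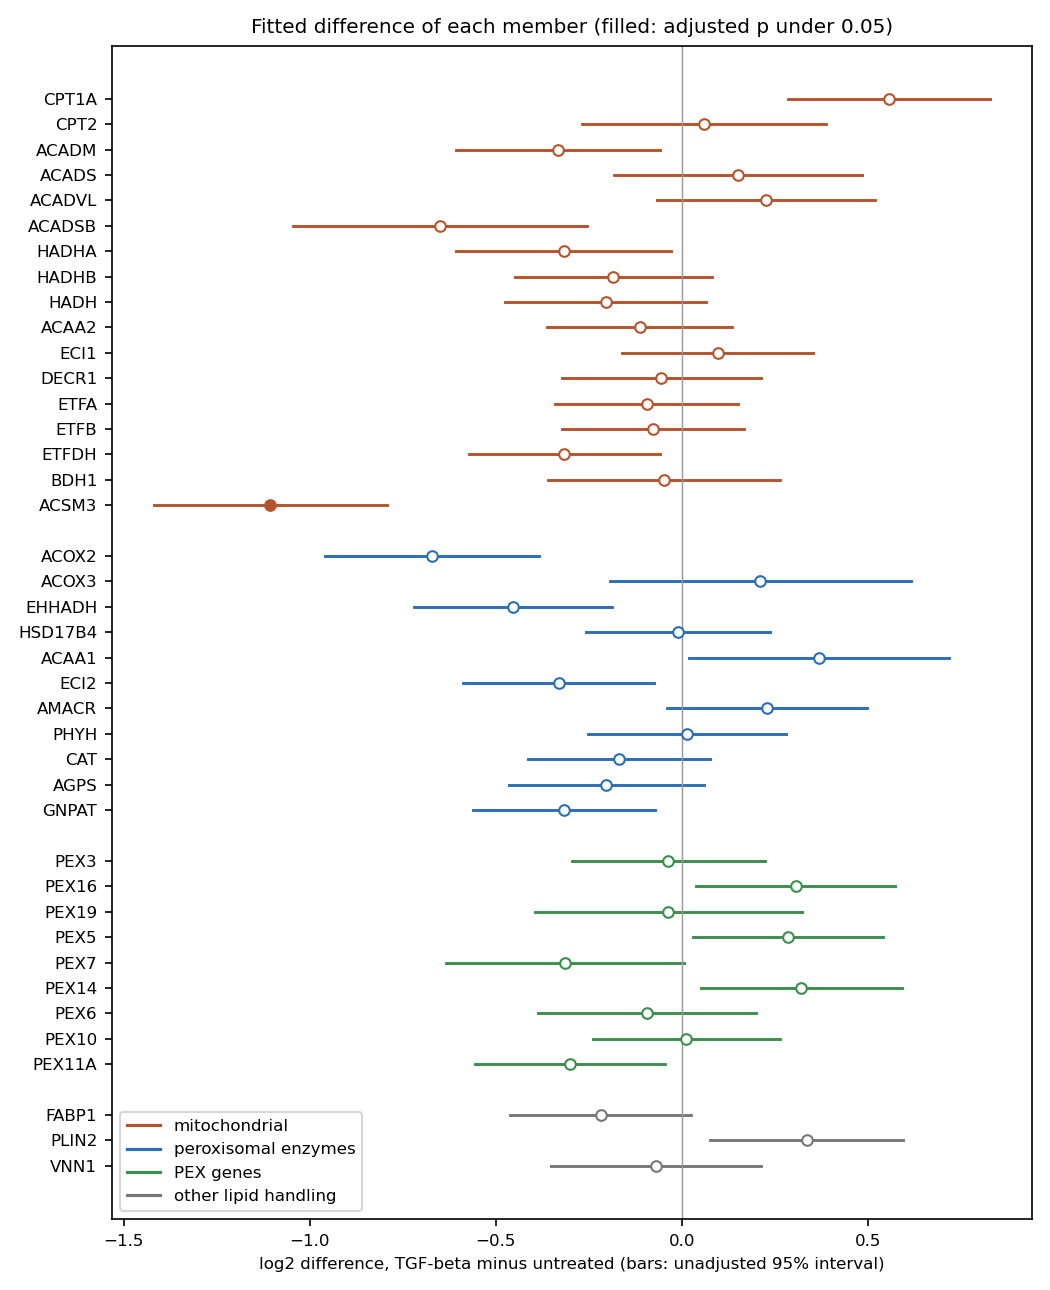
Fitted log2 difference of each gene, TGF-beta minus untreated (x axis), with its unadjusted 95% interval as a bar, coloured by class, and filled only where the adjusted p is under 0.05. ACSM3 is the 1 filled point, at -1.11, and 24 of the 40 bars cross 0.

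Among peroxisomal enzymes 0 of 11 were called, 7 had negative and 4 positive differences, and the acyl-CoA oxidases that open the pathway lay apart. ACOX2, the oxidase of branched chains and bile acid intermediates, had 67.9 and 76.0 after TGF-beta against 107 and 123 in untreated cells. No treated value came near the untreated ones. Its difference of -0.67 ± 0.12 (SE) had an adjusted p of 0.0541 in limma, just outside the threshold. ACOX3, the other branched-chain oxidase, had 131 and 105 after TGF-beta against 87.4 and 117 in untreated cells, overlapping values with a difference of 0.21 ± 0.17 (SE). The 95% interval of ACOX2, -0.96 to -0.38, and that of ACOX3, -0.19 to 0.62, did not overlap, but the difference between the pair was not tested.

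EHHADH and HSD17B4 are the 2 peroxisomal bifunctional enzymes that carry out the middle steps. EHHADH had 123 and 113 after TGF-beta against 154 and 171 in untreated cells, a difference of -0.45 ± 0.11 (SE, adjusted p = 0.0975 in limma) without overlap. HSD17B4 overlapped, with 2216 and 2347 after TGF-beta against 2330 and 2263 in untreated cells and a 95% interval of -0.26 to 0.24. ACAA1, the peroxisomal thiolase, had 2623 and 2284 after TGF-beta against 1667 and 2152 in untreated cells, a difference of 0.37 ± 0.15 (SE, adjusted p = 0.255 in limma), and its second probe set gave 0.31. The steps of the straight-chain pathway were thus on different sides of untreated cells: EHHADH lower, ACAA1 higher, neither called. ECI2, an enoyl-CoA isomerase of peroxisomes and mitochondria, had 2315 and 2456 after TGF-beta against 3132 and 2871 in untreated cells, a difference of -0.33 ± 0.11 (SE, adjusted p = 0.178 in limma).

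Branched-chain and ether lipid enzymes differed in side as well. AMACR, the racemase that prepares branched chains for oxidation, had 403 and 353 after TGF-beta against 315 and 328 in untreated cells, a difference of 0.23 ± 0.12 (SE). Its other 4 probe sets gave -0.04 to 0.40, so its direction depended on the probe set. PHYH, which removes the methyl block of phytanic acid by alpha-oxidation, overlapped, with 2105 and 1898 after TGF-beta against 2057 and 1901 in untreated cells and a 95% interval of -0.25 to 0.28. GNPAT and AGPS take the first steps of ether lipid synthesis, and both were lower without overlap. GNPAT had 6347 and 6667 after TGF-beta against 8207 and 8003 in untreated cells, a difference of -0.32 ± 0.10 (SE, adjusted p = 0.175 in limma). AGPS had 408 and 452 after TGF-beta against 478 and 511 in untreated cells, a difference of -0.20 ± 0.11 (SE). Catalase (CAT), which destroys the hydrogen peroxide the oxidases make, had 3492 and 3526 after TGF-beta against 4044 and 3849 in untreated cells, a difference of -0.17 ± 0.10 (SE), and its second bright probe set gave -0.16.

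The PEX genes had 0 calls among 9, with 4 positive and 5 negative differences, and the median of -0.04 turned to 0.07 without untreated array 1. Matrix proteins enter the peroxisome through 2 receptors, PEX5 for a signal at the C-terminus and PEX7 for one near the N-terminus, and these lay on opposite sides. PEX5 had 297 and 290 after TGF-beta against 230 and 252 in untreated cells, a difference of 0.29 ± 0.11 (SE, adjusted p = 0.231 in limma). PEX7 had 88.9 and 76.4 after TGF-beta against 112 and 93.3 in untreated cells, a difference of -0.31 ± 0.14 (SE, adjusted p = 0.287 in limma), and its second probe set gave -0.06. The groups did not overlap in either gene, and the difference between the receptors was not tested. PEX14, the docking protein that receives both, had 239 and 270 after TGF-beta against 210 and 196 in untreated cells, a difference of 0.32 ± 0.12 (SE, adjusted p = 0.207 in limma). A second, dimmer probe set of PEX14 gave 0.47.

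Of the 3 proteins that place peroxisomal membrane proteins, PEX16 had 335 and 381 after TGF-beta against 294 and 284 in untreated cells, a difference of 0.31 ± 0.11 (SE), while its other 2, dimmer probe sets gave -0.005 and 0.03. PEX3, the membrane anchor, and PEX19, the chaperone of these proteins, both had a difference of -0.04 with overlapping arrays, and the second probe set of PEX19 gave -0.35. PEX6 and PEX10, which recycle the import receptor, had differences of -0.09 and 0.01. PEX6 was dim, at 29.5 and 30.1 after TGF-beta against 34.9 and 28.9 in untreated cells, near the lower quartile of all genes. PEX11A, a peroxisome division factor induced through PPARA in rodents, had 61.3 and 67.7 after TGF-beta against 79.8 and 78.9 in untreated cells, a difference of -0.30 ± 0.11 (SE, adjusted p = 0.214 in limma). Its second probe set, dimmer still, gave 0.16.

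**Figure D3:**
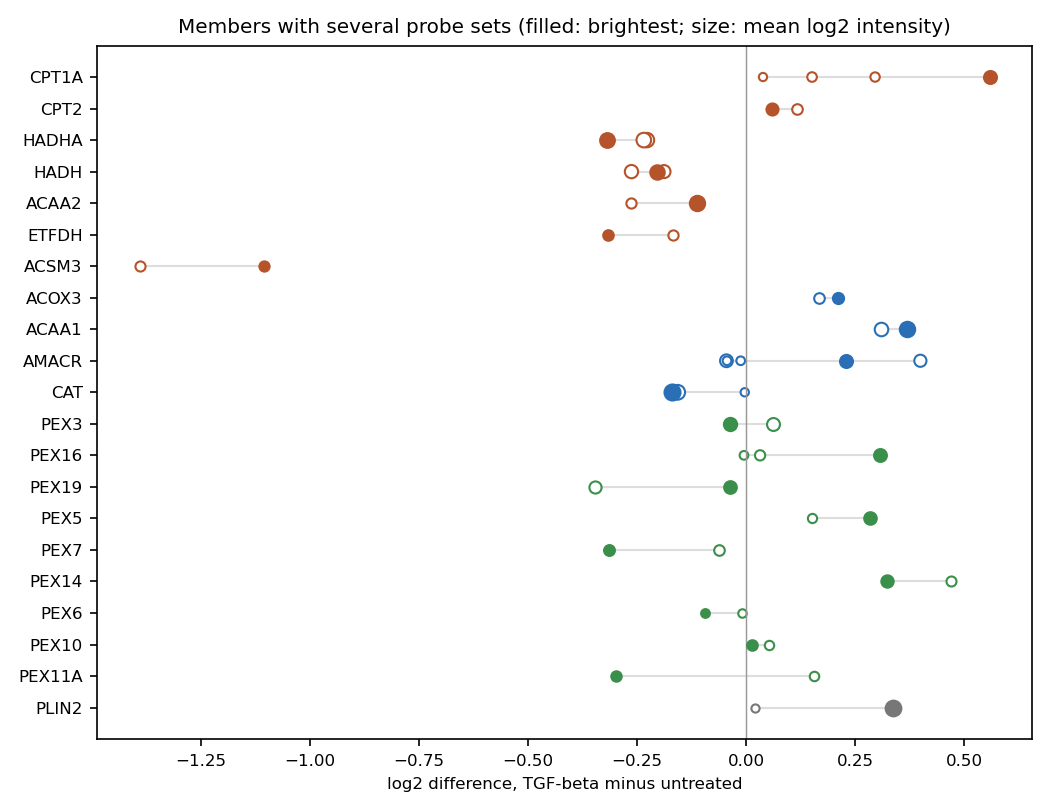
Log2 difference, TGF-beta minus untreated (x axis), of every probe set of the 21 genes that have several, with the brightest one filled, symbol size growing with mean log2 intensity, and colours for mitochondrial (brown), peroxisomal (blue), PEX (green) and other (grey) genes. In 17 of the 21 genes all other probe sets had the sign of the brightest, and AMACR, PEX3, PEX11A and PEX16 were the exceptions.

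Among the 3 remaining genes, PLIN2 and FABP1 lay on opposite sides, with 0 calls. PLIN2, the coat protein of lipid droplets, had 3326 and 3036 after TGF-beta against 2439 and 2599 in untreated cells, a difference of 0.34 ± 0.11 (SE, adjusted p = 0.174 in limma). FABP1, the liver fatty acid binding protein, had 3299 and 3241 after TGF-beta against 3876 and 3728 in untreated cells, a difference of -0.22 ± 0.10 (SE, adjusted p = 0.329 in limma). The arrays separated in both. VNN1, a membrane pantetheinase, was among the dimmest genes, at 25.2 and 21.4 after TGF-beta against 24.98 and 23.7 in untreated cells, so no direction is read from it.

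Other genes of these pathways came from 4 lists that leave out the 43. The mitochondrial, peroxisomal, PEX and PPARA lists named 37, 40, 7 and 33 genes, of which 25, 31, 3 and 25 were measured. The lists overlap: CRAT, ACSL1 and SLC25A20 were each measured in more than 1 of them. Of 25 further mitochondrial genes of fatty acid oxidation, ketone bodies and related acyl-CoA breakdown, 0 were called, against 1.22% of all genes. By the unadjusted p, 6 were lower (24%, against 8.6% of all genes) and 1 higher (4%, against 9.35%). Their median was -0.09, with 18 of 25 negative, against 6258 of 12165 over all genes. The 3 smallest p-values belonged to PCCA at -0.45, SLC25A20 at -0.45 and PCCB at -0.40. PCCA and PCCB are the 2 subunits of propionyl-CoA carboxylase, which takes up the last carbons of odd and branched chains. PCCA had 249 and 259 after TGF-beta against 347 and 349 in untreated cells (adjusted p = 0.0778 in limma), and PCCB 839 and 822 after TGF-beta against 1130 and 1068 in untreated cells (adjusted p = 0.104 in limma). MMUT, methylmalonyl-CoA mutase of the same route, had 953 and 970 after TGF-beta against 1546 and 1225 in untreated cells, and a difference of -0.52 ± 0.14 (SE). MMUT was chosen after its values were seen.

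Of 31 further genes listed as peroxisomal enzymes and transporters 0 were called, and the median was 0.01. By the unadjusted p, 1 was lower and 1 higher (3.23% each, against 8.6% and 9.35% of all genes). PECR, a peroxisomal enoyl-CoA reductase, had the smallest p, with 381 and 356 after TGF-beta against 535 and 477 in untreated cells and a difference of -0.46. ABCD4, a transporter of the peroxisomal ABC family that works in lysosomes, was at 0.39 (its second, dimmer probe set at -0.04). MPV17, on the list but not an established peroxisomal protein, was at -0.31. Of 3 further PEX genes 0 were called, with PEX26 (which anchors PEX6) at 0.37, PEX2 (a membrane ubiquitin ligase subunit) at -0.31 and PEX5L at -0.05.

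In the list of PPARA, its partners and textbook targets, 1 of 25 was called, against 1.22% of all genes. That gene was TXNIP, a thioredoxin-binding protein better known for its response to glucose, which fell by 1.82 ± 0.16 (SE, adjusted p = 0.0101 in limma). The list's median was -0.06, with 2 genes higher (8%, against 9.35% of all genes) and 4 lower (16%, against 8.6%) by the unadjusted p. PPARA itself was dim, with 32.08 and 32.04 after TGF-beta against 37.52 and 37.43 in untreated cells, a difference of -0.23 ± 0.10 (SE). RXRA, its binding partner, had 317 and 267 after TGF-beta against 190 and 146 in untreated cells, a difference of 0.81 ± 0.16 (SE, adjusted p = 0.0558 in limma). Its second, dimmer probe set had 41.8 and 33.2 after TGF-beta against 48.3 and 38.8 in untreated cells, a difference of the opposite sign (-0.22). FADS2, a fatty acid desaturase, had 325 and 338 after TGF-beta against 233 and 221 in untreated cells, a difference of 0.55 (adjusted p = 0.0557 in limma). The familiar PPARA targets PDK4, CYP4A11 and ANGPTL4 had differences of 0.26, -0.25 and 0.08, none called, and were chosen after their values were seen. All 3 were dim, at percentiles 25.5, 29.1 and 30.3 of mean intensity over all genes, where a change is hard to see.

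**Figure D4:**
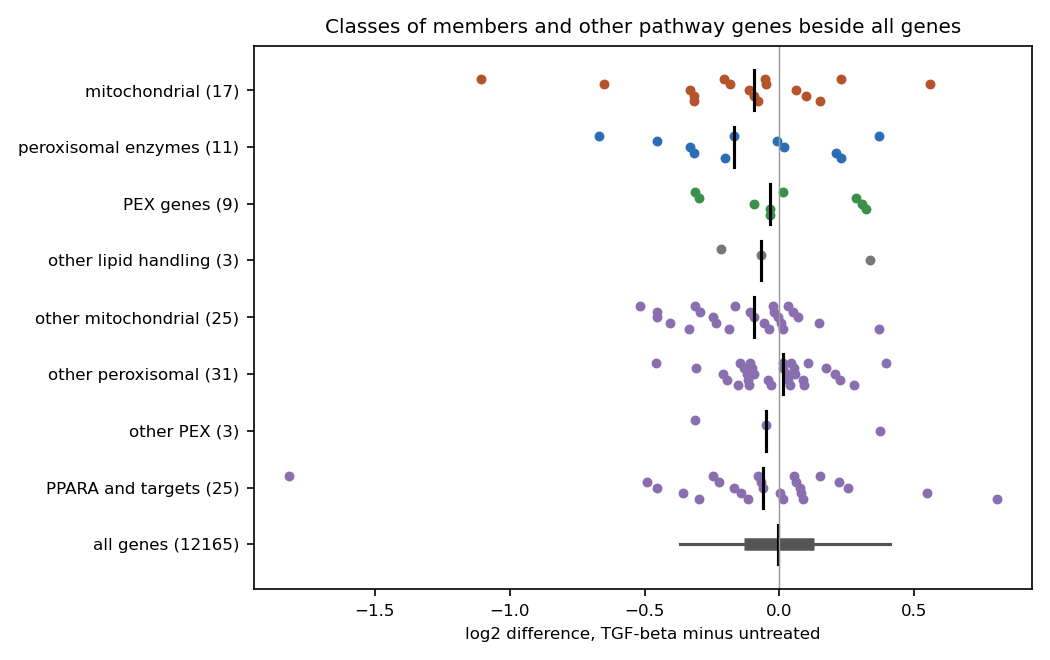
Log2 difference, TGF-beta minus untreated (x axis), of each gene by class and list with the number of genes in brackets, a black tick for each median, and for all 12165 genes a thick bar from the 25th to the 75th percentile and a thin line from the 5th to the 95th. The 4 classes and the 4 lists mostly lie within the thin line, from -0.37 to 0.41, and TXNIP at -1.82 and ACSM3 at -1.11 lie farthest out.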

How the data were processed

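Affymetrix arrays measured RNA of Huh-7 cells, 2 arrays after TGF-beta and 2 untreated. Per the labels, the deposited values are probe set intensities made with the affy package, with settings not given in the sources used here. Quartiles of the deposited intensities were nearly equal between arrays, so no further scaling was applied, and log2 was taken with no offset. Of 22215 probe sets, 19724 name 1 gene in the platform's annotation (568 name several and 1923 have no name there), and 19707 of these were given a current symbol by Entrez number through a RefSeq table of GRCh38.p14. The brightest probe set per gene left 12165 genes.

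Groups were compared with limma 3.58.1 (R 4.3.3; lmFit, eBayes, Benjamini-Hochberg over all genes; 7.41 degrees of freedom per gene). Of these degrees of freedom, 2 came from the gene's own arrays and 5.41 from the spread over all genes. The SE, intervals and p-values are moderated in this way. A simulation had 20 runs of 12165 genes, 200 of them changed. Its values were independent and normal, with variances drawn from limma's fitted spread over all genes. There 12.2% of log2 changes of 0.5, 91.4% of those of 1 and 99.1% of those of 1.5 were recovered. Of the simulated calls 5.13% were false. These rates hold for data of that form and do not measure the errors of these arrays. Plots used matplotlib 3.10.9. Per-array values are given for called members, the largest differences of each class and members of key roles, and other members were named for their role. From the other lists, called genes and the 3 smallest p-values are named. The members, lists and motifs were chosen with earlier results of these data known. A planned search of proteins for peroxisomal targeting signals was not run, since no protein table was used here. The array number showed no pairing (correlation of deviations 0.01). There were 12 alternatives. The number of arrays limits the precision.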

Additional observations from a re-analysis of the deposited data

How the results depend on the processing

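The count of called genes, 149 (80 higher and 69 lower), was 63 under quantile normalization, 311 under median centring (93 higher and 218 lower), 51 with an offset of 32, 89 without genes under the lower quartile of intensity, 616 with an intensity trend and 0 to 523 when 1 array was left out (limma). Leaving out TGF-beta array 1 or 2 gave 0 calls each, with 1326 and 1563 genes at an unadjusted p under 0.05, against 345 and 523 calls without untreated array 1 or 2. With the mean of all probe sets 162 of 12165 genes were called, and 222 of 8507 without probe sets that can match related transcripts. The count of called members, 1, was 0 with the offset of 32 (19 at an unadjusted p under 0.05 in limma). It was 2 under median centring and with the mean of all probe sets (ACSM3 and ACOX2). Without probe sets that can match related transcripts it was 3 of 31 tested (also CPT1A). With an intensity trend the count of called members was 6 (also ECI2, GNPAT and PLIN2). Without 1 array it was 0 to 2, at 0 without either TGF-beta array (9 and 10 at an unadjusted p under 0.05), and ACOX2 or ACADSB joined ACSM3 without untreated array 1 or 2. With the array number as a replicate block, 1229 genes and 5 members were called (ACADSB, ACOX2, ACSM3, CPT1A and EHHADH). The arrays share only a number, so this fit is not evidence of pairing.

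The mitochondrial median, -0.09, moved to -0.065 under quantile normalization, -0.17 under median centring, -0.14 without probe sets that can match related transcripts and -0.14 to -0.10 without 1 array. The peroxisomal median, -0.17, moved to -0.25 under median centring, -0.11 with the mean of all probe sets, -0.11 without probe sets that can match related transcripts and -0.18 to -0.13 without 1 array. Median centring moved the median of all genes from -0.0062 to -0.083, and the class medians with it. The PEX median ran from -0.10 to 0.070 without 1 array. The median of the other 3 genes was 0.059 without genes under the lower quartile, 0.13 without probe sets that can match related transcripts and -0.19 to 0.049 without 1 array. Of the 40 members, 27 kept their direction in every alternative that measured them (31 had a probe set left without those that can match related transcripts) and 13 turned in at least 1 alternative, all uncalled. Median centring, with that shift common to all genes, turned CPT2 (-0.016), PHYH (-0.061) and PEX10 (-0.064), quantile normalization turned HSD17B4 (0.033) and PEX10 (-0.042), and the choice of probe sets turned AMACR (-0.045) and PEX3 (0.014). Without 1 array the range was -0.079 to 0.20 for CPT2, -0.016 to 0.32 for ACADS, -0.15 to 0.042 for DECR1, -0.18 to 0.082 for BDH1, -0.0010 to 0.42 for ACOX3 and -0.051 to 0.031 for HSD17B4. It was -0.059 to 0.090 for PHYH, -0.10 to 0.028 for PEX3, -0.21 to 0.14 for PEX19, -0.23 to 0.042 for PEX6, -0.044 to 0.070 for PEX10 and -0.19 to 0.049 for VNN1. The cause of the other turns was not tested. For genes near the lowest intensities, such as VNN1 and PEX6, falls can hardly be seen.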
